A study of Homo sapiens with 6 samples.

Results

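The ubiquitin-specific proteases (USP enzymes) were represented in the screen by 32 guides against 8 genes, which were Usp1, Usp3, Usp7, Usp10, Usp28, Usp45, Usp47 and Usp51. They were chosen by symbol, as every guide whose gene name was Usp followed by a number. The 32 guides stood among 1826 gene-targeting guides against 459 genes, and 61 further guides were non-targeting. Each gene had 4 guides, sg1 and sg2 at the construct's position 1 and sg3 and sg4 at position 2, so that guides of one gene shared a target and were not replicates of a condition. Symbols were written as mouse symbols although the cells are human, and all 8 matched a human gene.

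In this screen 2 guides were carried by 1 construct, so that a cell could lose 2 genes at once, and the reads of each construct were counted in genomic DNA. The cells were eHAP iCas9-cl#6, 1 clone of a near-haploid human line with a doxycycline-inducible Cas9, and all groups shared the label p53 null. The 6 libraries formed 3 groups of 2 replicates. The day 0 group was untreated. The day 14 group grew without irradiation for 12 population doublings. The irradiated group received 0.6 Gy of X-rays 1 day after each passage and was collected at day 15, after 10 doublings, so it differed from the day 14 group in days and doublings as well as in treatment. The labels call this dose by 2 different lethal-dose figures. The question was which knockouts change the growth of the cells, with and without ionizing radiation.

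USP enzymes are cysteine proteases that cut ubiquitin from proteins and so oppose ubiquitin ligases. In the response to DNA damage, ubiquitin marks PCNA, the FANCD2-FANCI pair and the histones around double-strand breaks, and it sets the life span of p53, MDM2 and checkpoint proteins. USP enzymes remove or trim these marks, and the best known example is USP1, which with its cofactor WDR48 (UAF1) acts on FANCD2 and PCNA.

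In RefSeq's annotation of GRCh38.p14 the targeted genes lie at chr1:62436395-62451804 (USP1), chr15:63504593-63594633 (USP3), chr16:8892097-8963906 (USP7), chr16:84700000-84779922 (USP10), chr11:113797875-113875572 (USP28), chr6:99432325-99517846 (USP45), chr11:11841972-11961887 (USP47) and chrX:55484616-55489848 (USP51). These are spans of whole genes. The guide sequences and the cut sites within these spans were not analysed here.

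Library totals were 61185707 to 86587125 reads, of which 3.28% to 3.45% came from constructs with a USP guide. These constructs were 29183 of the 863546 guide pairs with reads in any library. Of the libraries, 2 stood apart because many pairs were absent from them: day 14 replicate 1 lacked 55.6% of the USP pairs and irradiated replicate 2 lacked 51.6%, against 2.01% to 9.14% in the other 4 libraries. The fits for USP genes, single knockouts, pairs and guides were therefore also run without both libraries. Nothing in the labels says that replicates were separate cultures, so p-values measure the spread between these libraries only.

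The loss of constructs was spread unevenly over the USP guides. In day 14 replicate 1 the share of absent partners was 17.0% for Usp1_sg2, which had the most reads, and 90.3% for Usp47_sg4, which had the fewest. In irradiated replicate 2 the same guides marked the range, with 11.9% and 89.5%. In the other 4 libraries the highest share of absent partners was again that of Usp47_sg4, at 46.3% and 13.0% at day 0, 38.1% in day 14 replicate 2 and 45.1% in irradiated replicate 1. Across the 32 guides, Spearman's rho between the mean level of a guide and its share of absent partners was −0.99 in both libraries, as a description over guides that share libraries and depth. A single construct held up to 9.19% of the reads of a USP guide in day 14 replicate 1 and up to 10.8% in irradiated replicate 2, against at most 1.14% to 3.35% in the other 4 libraries.

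All 32 USP guides passed the filter on low counts, a mean of at least 2000 reads per library after summing a guide over all its partners. Their mean counts ran from 7446 to 253060 reads. Levels are given below as scaled RPM, that is, summed reads per 1000000 reads of the library total after trimmed-mean (TMM) scaling, within each position for guides and over all genes for genes. In this unit the median of the 32 guides was 870 and that of all guides tested was 898.

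None of the 8 USP genes and none of the 32 guides changed beyond the spread between replicates in any of the 3 comparisons, by edgeR's quasi-likelihood test at an adjusted p under 0.05. The 3 comparisons share groups and are not independent of each other. For sums per gene the called share was 0% of 459 genes in each comparison, so the USP genes did not stand apart from the library in this. At an unadjusted p under 0.05, 1 of 8 genes passed between day 14 and day 0 against 3.49% of all genes, 0 between irradiated and day 0 against 3.7%, and 1 between irradiated and day 14 against 2.61%. Both of these passes were Usp1. DESeq2 called 0 of the 8 genes in each comparison. Without the incomplete libraries, which leaves 1 library in each later group and little power (1 of 459 genes at an unadjusted p under 0.05 in each comparison), the log2 changes of the 8 genes ran from −0.12 to 0.17 at day 14, from −0.05 to 0.21 after irradiation, each against day 0, and from −0.03 to 0.17 between irradiated and day 14.

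Usp1, whose product removes ubiquitin from FANCD2 and PCNA, was the USP gene with the lowest value at day 14. Its summed reads were 2673 and 2736 scaled RPM at day 0, 2370 and 2494 at day 14, and 2803 and 2659 in the irradiated libraries. The day 14 libraries were both below the other 4, which overlapped each other. The log2 change from day 0 to day 14 was −0.15 (SE 0.05, 95% interval −0.27 to −0.03, n = 2 per group), with an unadjusted edgeR p of 0.0199 and an adjusted p of 0.573. From day 14 to the irradiated group the log2 change was 0.17 (SE 0.05, 95% interval 0.05 to 0.29), with an unadjusted edgeR p of 0.014 and an adjusted p of 0.996. From day 0 to the irradiated group it was 0.01 (95% interval −0.11 to 0.13).

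All 4 Usp1 guides were lower at day 14 than at day 0, which was so for 12.8% of the 414 genes with 4 tested guides, and all 4 were higher in the irradiated libraries than at day 14, which was so for 6.04%. These comparisons use the same day 14 libraries, so the counts are not separate evidence. The abundant Usp1_sg2 had 3356 and 3528 scaled RPM at day 0, 2987 and 3082 at day 14, and 3597 and 3446 after irradiation. The scarcer Usp1_sg1 had 317 and 339, then 276 and 305, then 343 and 308. In both guides the day 14 pair lay below the day 0 and the irradiated pairs without overlap. Between the guides, log2 changes at day 14 ran from −0.18 (Usp1_sg2) to −0.07 (Usp1_sg3). For Usp1_sg2 the irradiated group lay above day 14 by 0.22 on the log2 scale (95% interval 0.09 to 0.34), with an adjusted edgeR p of 0.699 and an adjusted DESeq2 p of 0.0245.

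The Usp1 values kept their size without the incomplete libraries, at −0.12 for day 14 against day 0 and 0.17 for irradiated against day 14. Only a summary by the median over partners turned them, to 0.68 and −0.11. That summary moved the median of all genes as well, to 0.42 between day 14 and day 0, and in day 14 replicate 1 it was at 0 reads for 20 of the 32 USP guides.

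Wdr48 encodes the cofactor that activates USP1, and its guides did not follow those of Usp1. Its sums were 1596 and 1856 scaled RPM at day 0, 1871 and 1902 at day 14, and 1842 and 1895 after irradiation, with day 0 replicate 1 the lowest of the 6. The log2 changes were 0.13 (95% interval −0.07 to 0.32) at day 14 and 0.11 (95% interval −0.08 to 0.31) after irradiation, each against day 0. The difference between Usp1 and Wdr48 was not tested.

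Usp3 and Usp51 encode enzymes that remove ubiquitin from histone H2A, the mark that RNF168 places beside breaks. Usp3 had 1853 and 1732 scaled RPM at day 0, 1844 and 1769 at day 14, and 1736 and 1722 after irradiation. Its log2 changes were 0.01 at day 14 and −0.05 after irradiation against day 0, and −0.06 between irradiated and day 14 (95% interval −0.20 to 0.08). Both irradiated libraries were below both day 14 libraries, with an interval that covered 0. Among its guides, Usp3_sg2 had 1513 and 1415, then 1610 and 1511, then 1413 and 1434, and Usp3_sg4 had 771 and 688, then 692 and 674, then 676 and 627. The first had its highest library at day 14 and the second at day 0, so these guides did not share an order.

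Usp51 had the highest log2 change of the 8 genes against day 0, 0.22 at day 14 (SE 0.12, 95% interval −0.09 to 0.52) and 0.23 after irradiation (95% interval −0.07 to 0.54), with adjusted edgeR p-values of 0.573 and 0.643. Its sums were 1160 and 1494 scaled RPM at day 0, 1593 and 1494 at day 14, and 1537 and 1583 after irradiation. One library set this apart, day 0 replicate 1, while day 0 replicate 2 was level with day 14 replicate 2. Without day 0 replicate 1 the changes were 0.05 and 0.06, and without day 0 replicate 2 they were 0.41 and 0.43.

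The difference lay in the guides at position 2. Usp51_sg4 had 832 and 1415 scaled RPM at day 0, 1573 and 1427 at day 14, and 1467 and 1560 after irradiation. Usp51_sg3 had 113 and 178, then 204 and 171, then 178 and 157. In both guides day 0 replicate 1 was the lowest of the 6 libraries. At position 1, log2 changes of Usp51_sg1 and Usp51_sg2 against day 0 stayed between −0.03 and 0.09.

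Usp47 encodes an enzyme described as removing ubiquitin from DNA polymerase beta in base excision repair, and its position 2 guides had the same pattern. The gene's sums were 792 and 948 scaled RPM at day 0, 871 and 886 at day 14, and 950 and 964 after irradiation. Usp47_sg3 had 248 and 418, then 371 and 430, then 417 and 417, and Usp47_sg4, the scarcest USP guide, had 61.2 and 110, then 91.7 and 113, then 115 and 108. Day 0 replicate 1 was again the lowest library for both guides. The gene's log2 change was 0.01 at day 14 and 0.14 after irradiation (95% interval −0.09 to 0.37) against day 0, and 0.12 between irradiated and day 14 (95% interval −0.11 to 0.35). All 4 Usp47 guides were higher after irradiation than at day 0, which was so for 11.8% of genes, and than at day 14, which was so for 6.04%. Without day 0 replicate 1 the change after irradiation against day 0 was 0.01, and without day 0 replicate 2 it was 0.27.

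This shift was not particular to USP guides. Usp47_sg3, Usp47_sg4, Usp51_sg3 and Usp51_sg4 were lower in day 0 replicate 1 than in replicate 2 by 0.65 to 0.85 on the log2 scale. A gap over 0.5 in this direction was seen for 28.5% of the 927 position 2 guides tested and for 0.217% of the 922 at position 1, and Wdr48_sg3 and Wdr48_sg4 were among the former. The other 12 position 2 USP guides were 0.11 to 0.20 higher in day 0 replicate 1, and the 16 at position 1 differed by −0.10 to 0.10. Leaving out the 4 low guides, USP guide changes ran from −0.31 to 0.09 at day 14 against day 0, from −0.25 to 0.17 after irradiation against day 0, and from −0.13 to 0.24 between irradiated and day 14.

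Usp7, Usp10 and Usp28 encode regulators of p53 and checkpoint proteins. USP7 stabilizes MDM2 and p53, USP10 acts on p53 in the cytoplasm, and USP28 binds 53BP1 and stabilizes checkpoint substrates. All 3 were measured here in cells labelled p53 null.

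Usp7 had 2472 and 2310 scaled RPM at day 0, 2215 and 2314 at day 14, and 2312 and 2195 after irradiation. The groups overlapped, and its log2 changes against day 0 were −0.08 at day 14 (95% interval −0.21 to 0.06) and −0.09 after irradiation (95% interval −0.22 to 0.05). Its lowest guide was Usp7_sg3, with 1221 and 1100 at day 0, 924 and 1060 at day 14, and 1058 and 896 after irradiation. Usp7_sg3 was lower than both day 0 libraries in all 4 later libraries, by −0.23 at day 14 (95% interval −0.52 to 0.07) and −0.25 after irradiation (95% interval −0.54 to 0.04). Usp7_sg4 had 1285 and 1148, then 1292 and 1148, then 1091 and 1155, and the position 1 guides of Usp7 stayed within −0.07 and 0.02 against day 0.

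Usp10 had the most reads of the 8 genes and the narrowest intervals. Its sums were 3687 and 3704 scaled RPM at day 0, 3780 and 3678 at day 14, and 3835 and 3979 after irradiation. Both irradiated libraries lay above the other 4. The log2 change after irradiation was 0.08 against day 0 (95% interval −0.00 to 0.16) and 0.07 against day 14 (95% interval −0.02 to 0.15), with adjusted edgeR p-values of 0.643 and 0.996. Among its guides, Usp10_sg1 was higher after irradiation than at day 0 by 0.17, and the other 3 differed by −0.02 to 0.05.

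Usp28 was the flattest of the 8 genes. Its sums were 2472 and 2399 scaled RPM at day 0, 2463 and 2449 at day 14, and 2448 and 2399 after irradiation. Log2 changes were 0.01, −0.01 and −0.02 in the 3 comparisons, with 95% intervals that stayed within −0.12 and 0.11.

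Usp45 encodes an enzyme described as removing ubiquitin from ERCC1, the partner of the XPF nuclease in nucleotide excision repair. It had 2224 and 2036 scaled RPM at day 0, 1910 and 2010 at day 14, and 2088 and 1975 after irradiation. Both day 14 libraries lay below both day 0 libraries, with a log2 change of −0.12 (95% interval −0.28 to 0.04), an unadjusted edgeR p of 0.11 and an adjusted p of 0.573. After irradiation the change was −0.07 against day 0 (95% interval −0.22 to 0.09), and all 4 guides were lower, which was so for 12.3% of genes. Its day 14 change was −0.05 without day 0 replicate 1, and −0.18 without day 0 replicate 2.

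Usp45_sg2 had the lowest day 14 change of all 32 guides. It had 756 and 781 scaled RPM at day 0, 581 and 664 at day 14, and 735 and 729 after irradiation. The day 14 libraries were below the other 4, which lay close together. The log2 change was −0.31 at day 14 against day 0 (95% interval −0.52 to −0.09, adjusted edgeR p 0.673) and 0.24 between irradiated and day 14 (95% interval 0.03 to 0.45, adjusted edgeR p 0.9997). Among the other guides of Usp45, day 14 changes ran from −0.15 (Usp45_sg1) to 0.01 (Usp45_sg4).

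Ordered by the change from day 0 to day 14, the genes ran from Usp1 through Usp45, Usp7, Usp3, Usp28, Usp10 and Usp47 to Usp51. For irradiated against day 0 the order was Usp7, Usp45, Usp3, Usp28, Usp1, Usp10, Usp47 and Usp51. Between irradiated and day 14 it was Usp3, Usp28, Usp7, Usp51, Usp45, Usp10, Usp47 and Usp1. No neighbours in these orders differed beyond their intervals. Of the 28 pairs of USP genes, 0 had 95% intervals that did not touch, in any of the 3 comparisons. Over the whole library, the median margin of the 95% interval was 0.14 on the log2 scale on either side for a gene. For a guide it was 0.21. These intervals are not adjusted for the number of tests, so a call by adjusted p needed a larger change. Usp1, with −0.15 at day 14 against day 0, had an adjusted edgeR p of 0.573.

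Over the 32 guides, 20 were lower and 12 higher at day 14 than at day 0 (median −0.04), 17 lower and 15 higher after irradiation than at day 0 (median −0.00), and 11 lower and 21 higher after irradiation than at day 14 (median 0.02). Over all 1849 guides tested these medians were −0.00 in each comparison. At an unadjusted edgeR p under 0.05, 2, 1 and 4 of the 32 guides passed, against 3.95%, 2.97% and 4.49% of all guides, and the called share by adjusted p was 0% in each. Groups did not overlap for 13 USP guides between day 14 and day 0, against 41% of all guides. The number was 8 between irradiated and day 0, against 36.8%, and 13 between irradiated and day 14, against 31.4%. DESeq2 called Usp1_sg2 between irradiated and day 14, as above, among 22 of 1849 guides, and no USP guide among the 24 and 27 it called at day 14 and after irradiation against day 0.

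Counted by gene, groups did not overlap for 3 of 8 USP genes between day 14 and day 0 against 40.7% of all genes, for 3 between irradiated and day 0 against 38.8%, and for 5 between irradiated and day 14 against 34.2%. The last were Usp1, Usp10 and Usp47, which were higher after irradiation, and Usp3 and Usp28, which were lower.

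Single knockouts were read from the constructs that pair a USP guide with a non-targeting guide, 111 to 122 per gene. Their reads are given as a percent of the reads of constructs that carry non-targeting guides alone, which were 33836 to 54183 per library, and the mean count of a USP gene was 3250 to 14206 reads. Of the constructs with non-targeting guides alone, 69.7% were absent in day 14 replicate 1 and 66.6% in irradiated replicate 2. In the other libraries this was 3.1% to 16.1%. Percents in the incomplete libraries therefore rest on fewer such constructs. The called share of all single knockouts was 0% in each comparison, and 0 of 8 USP genes were called by edgeR or DESeq2. At an unadjusted edgeR p under 0.05 the count was 0 at day 14 against day 0 (3.7% of all genes), 1 after irradiation against day 0 (2.83%) and 0 between irradiated and day 14 (2.61%).

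Usp51 was the gene that passed unadjusted. Its single knockouts held 9.33% and 12.6% of the non-targeting reads at day 0, 14.5% and 11.6% at day 14, and 12.7% and 18.0% after irradiation. Both irradiated libraries were above both day 0 libraries, with a log2 change of 0.49 (95% interval 0.02 to 0.96, unadjusted edgeR p 0.0433, adjusted p 0.975). The change was 0.29 without day 0 replicate 1, 0.72 without day 0 replicate 2, 0.72 without irradiated replicate 1 and 0.21 without irradiated replicate 2, and it was also 0.21 without the incomplete libraries.

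Single knockouts of Usp1 held 21.5% and 22.8% at day 0, 19.8% and 21.0% at day 14, and 22.1% and 18.0% after irradiation. Both day 14 values were below both day 0 values, and the irradiated pair spanned the day 14 values. The log2 change was −0.12 at day 14 (95% interval −0.48 to 0.24), and −0.02 between irradiated and day 14 (95% interval −0.38 to 0.34). Without the incomplete libraries the latter was 0.07, and leaving out 1 library in turn it ran from −0.18 to 0.12.

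Among the other single knockouts, Usp10 held 31.5% and 31.1% at day 0, 24.2% and 31.0% at day 14, and 32.4% and 33.8% after irradiation. Usp45 held 17.4% and 15.4%, then 13.3% and 14.9%, then 15.8% and 18.5%. In both genes the day 14 values were below both day 0 values, by −0.18 and −0.21 on the log2 scale, with intervals that covered 0. Without day 14 replicate 1, one of the incomplete libraries, the Usp10 change was −0.02. Usp3 went the other way, with 15.0% and 14.9% at day 0, 19.98% and 15.1% at day 14 and 15.2% and 14.4% after irradiation, and a day 14 change of 0.23 (95% interval −0.15 to 0.62), beside a median of 0.06 over all single knockouts. Without day 14 replicate 1 it was 0.02. Usp7, Usp28 and Usp47 had changes from −0.26 to 0.29 over the 3 comparisons. Groups did not overlap for 4 USP genes at day 14 against day 0 (30.5% of all genes), for 2 after irradiation against day 0 (34.4%), and for 2 between irradiated and day 14 (25.1%).

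Constructs with both guides against the same USP gene were 4 per gene. Usp45 was lower in every later library there, with 6.23 and 4.55 RPM of the library total, without TMM scaling, at day 0, 3.08 and 2.99 at day 14, and 3.29 and 2.07 after irradiation. The day 0 values lay above the rest without overlap. The same held for Usp7, with 4.44 and 4.55, then 3.84 and 3.99, then 4.07 and 3.245. Values of Usp10 and Usp51 overlapped between all groups. Usp28 went the other way at day 14, with 3.84 and 3.06 at day 0, 8.21 and 4.36 at day 14, and 4.38 and 2.32 after irradiation. Its day 14 values lay above those at day 0 without overlap, and its irradiated values did not. The value of 8.21 came from day 14 replicate 1, an incomplete library. Usp3 had 2.84 and 2.51 at day 0, 0 and 3.37 at day 14, and 2.69 and 3.03 after irradiation, with the 0 in that same library. Usp1 had 6.61 and 4.50, then 4.02 and 4.53, then 5.13 and 4.10, which overlapped. Usp47 had 36 and 59 reads at day 0, 0 and 42 at day 14, and 67 and 0 after irradiation, with the 0s in the incomplete libraries, and no difference could be read from it. These sums were not tested, and the share of all genes without overlap was not computed for such constructs.

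The genes around the USP enzymes were read from lists of ligases, substrates and other deubiquitinases, by sums per gene. There were 19 measured genes of PCNA and FANCD2-FANCI ubiquitination, which place the marks USP1 removes. Of these, 15 were lower and 4 higher at day 14 than at day 0 (median −0.06), against 222 of all 459 genes lower (median 0.01). After irradiation 18 were lower and 1 higher than at day 0 (median −0.03), against 239 of all 459 lower (median −0.00). Both counts use the same day 0 libraries, and the list was not recounted without day 0 replicate 1. Between irradiated and day 14, 9 were lower and 10 higher (median 0.00). None was called. Faap20, a subunit of the Fanconi core complex, had 985 and 908 scaled RPM at day 0, 811 and 887 at day 14, and 873 and 799 after irradiation. Rfwd3, a ubiquitin ligase of the Fanconi pathway, had 1588 and 1511, then 1590 and 1658, then 1423 and 1356, and its irradiated values were the lowest of the 6, with a log2 change of −0.23 against day 14 (95% interval −0.37 to −0.08, adjusted edgeR p 0.996).

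Of 17 genes of histone ubiquitination at breaks, 9 were lower and 8 higher in each comparison, with medians of −0.00. Of 9 genes for p53 and checkpoint substrates, 4, 3 and 5 were lower and 5, 6 and 4 higher in the 3 comparisons. Topbp1, an activator of the ATR kinase, had 3506 and 3533 scaled RPM at day 0, 3347 and 3363 at day 14, and 3595 and 3541 after irradiation. Trp53 had 1954 and 2585, then 2603 and 2676, then 2645 and 2724, with log2 changes of 0.22 and 0.24 against day 0. In Ube2v2 and Trp53, day 0 replicate 1 was the lowest library. Of 5 other deubiquitinases and cofactors, 2 or 3 were lower in each comparison. Uchl5, a proteasome-bound deubiquitinase, had 1702 and 1604, then 1555 and 1494, then 1523 and 1432, and all later libraries were below both at day 0. None of these genes was called by adjusted p.

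For pairs of genes, the interaction was the log2 change of the pair's reads beyond the sum of both gene effects, fitted over all 105111 gene pairs. A USP gene was in 3636 of them. Reads of a pair are given below as raw counts, not scaled to the library totals. Both day 14 libraries had lower totals than the others, so raw reads tend to be lower there. The called share was 0% in each comparison for all pairs and 0 for USP pairs, by edgeR, and limma-trend also called 0 USP pairs. At an unadjusted p under 0.05, edgeR passed 12, 10 and 27 USP pairs against 0.387%, 0.336% and 0.793% of all pairs. The median 95% interval of a USP pair reached 1.37 on the log2 scale on either side, so only large interactions could have been seen.

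The USP pairs of smallest unadjusted p between irradiated and day 14 were Pcna with Usp10, Esco2 with Usp1, and Actr5 with Usp7. Pcna with Usp10 had 1107 and 1437 reads at day 0, 676 and 960 at day 14, and 1850 and 2617 after irradiation, an interaction of 1.07 (95% interval 0.31 to 1.82). Esco2 with Usp1 had 660 and 483, then 87 and 228, then 560 and 1319, an interaction of 1.97 (95% interval 0.52 to 3.42). Actr5 with Usp7 had 889 and 748, then 943 and 524, then 375 and 224, an interaction of −1.72 (95% interval −3.07 to −0.37). The adjusted edgeR p was 1 for each. In these pairs the irradiated libraries did not overlap with those at day 14, but the pairs were picked by p in this comparison. The lack of overlap is therefore no separate support, and the share of all pairs without overlap was not computed. In each pair the lowest and the highest reads came from the incomplete libraries. PCNA is the sliding clamp of replication, ESCO2 acetylates cohesin and ACTR5 is a subunit of the INO80 remodeller.

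Against day 0, the irradiated group had its smallest p for Rnf138 with Usp47, with 376 and 452 reads at day 0, 153 and 296 at day 14 and 679 and 1075 after irradiation (interaction 1.44, 95% interval 0.26 to 2.62). Trp53bp1 with Usp10 had 1003 and 1834, then 976 and 1462, then 4108 and 2340 (interaction 1.21, 95% interval 0.16 to 2.25). Hus1b with Usp51 had 114 and 340, then 289 and 315, then 559 and 714 (interaction 1.79, 95% interval 0.18 to 3.41). In each of these pairs, picked by p in this comparison, the irradiated reads were above both day 0 libraries. At day 14 against day 0 the first 3 were Mms22l with Usp28 (1.48, 95% interval 0.30 to 2.65), Rnf168 with Usp45 (1.64, 95% interval 0.27 to 3.01) and Ube2v2 with Usp45 (−1.26, 95% interval −2.38 to −0.14). Their adjusted edgeR p was 0.972.

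Without both incomplete libraries the count of called USP pairs moved from 0 to 5 at day 14 against day 0, to 35 after irradiation against day 0 and to 5 between irradiated and day 14, while all pairs called were 96, 1147 and 167. The counts of called pairs are out of 3636 USP pairs and 105111 pairs in all. This fit too has 1 library in each later group, assumed to vary like the day 0 pair, which alone sets the spread. The 5 pairs at day 14, named after their values were seen, were Eme2 with Usp28 (1.21), Rad51c with Usp28 (1.07), Ube2v2 with Usp45 (−1.20), Paxip1 with Usp1 (0.87) and Psmd14 with Usp47 (1.32). The 5 between irradiated and day 14 were Lig3 with Usp45 (1.67), Trp53bp1 with Usp10 (1.17), Eme2 with Usp28 (−1.35), Mbd4 with Usp7 (1.10) and Trex2 with Usp51 (1.23). Trp53bp1 with Usp10 and Lig3 with Usp45 had the smallest adjusted p of the 35, with interactions of 1.63 and 1.74. For Lig3 with Usp45, irradiated replicate 1 had 1814 reads and irradiated replicate 2 had 413, against 711 and 733 at day 0, so the replicates disagreed. For Ube2v2 with Usp45, the later libraries had 274, 369, 526 and 418 raw reads, all below the 1242 and 833 at day 0. This pair was picked by p against the same day 0 libraries, so its lack of overlap is no separate support. The share of all pairs without overlap was not computed.

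Pairs of a USP gene with a commonly described partner or substrate were 31. Of these, 15 were lower and 16 higher at day 14 and after irradiation, each against day 0, and 13 lower and 18 higher between irradiated and day 14. None passed an unadjusted p under 0.05. Usp1 with Fancd2, its substrate, had 1036 and 886 reads at day 0, 345 and 562 at day 14, and 728 and 1164 after irradiation, with interactions of −0.29 at day 14 (95% interval −1.23 to 0.65) and 0.47 between irradiated and day 14 (95% interval −0.47 to 1.42). Usp1 with Wdr48, its cofactor, had 538 and 646, then 337 and 362, then 530 and 841, with −0.09 at day 14 (95% interval −1.15 to 0.96). Usp1 with Pcna had 566 and 1196, then 1386 and 779, then 791 and 2371, and its highest values came from the incomplete libraries. Uvssa with Usp7, which act together in transcription-coupled repair, had an interaction of 0.83 at day 14 and 0.92 after irradiation against day 0, with intervals that covered 0. Among the 28 pairs of USP genes with each other, 19 were higher at day 14 against day 0, 15 after irradiation against day 0, and 11 between irradiated and day 14, with 0 passing an unadjusted p under 0.05. Usp45 with Usp47 had the highest of these at day 14, 1.90 (95% interval −0.77 to 4.58), and its reads were 292 and 251 at day 0, 757 and 144 at day 14, and 230 and 962 after irradiation, again highest in the incomplete libraries.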

How the data were processed

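The deposited values are raw counts of reads per guide pair, not normalized, per the file headers, and all are whole numbers. Pairs not listed in a library were set to 0. HISAT2 2.1.0 and hg38 are named in the submitters' processing notes without a role. Reads carry no molecular identifiers, so counts can hold PCR copies. The deposited counts of each library's own table and of the combined tables differed in 0 pairs, and 2 columns that matched no sample were not used.

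The members and the gene lists were chosen with earlier results of these data known. Groups came from the sample titles. Counts were summed per guide, per gene, per single knockout and per gene pair, and each kind was fitted over the whole library with edgeR 4.0.16 (quasi-likelihood, robust, two-sided, R 4.3.3), all 6 libraries in 1 fit with group as the term, and Benjamini-Hochberg adjustment. Sums per guide or gene needed a mean of 2000 reads, single knockouts 20. Pair offsets were additive gene effects from a median polish (25 iterations, prior count 2). Alternatives used DESeq2 1.42.0 and limma 3.58.1. The scripts were tested on simulated data. The simulated libraries held no loss of constructs, and pairs varied less there than in these data. Every USP gene was named. A guide was named if called or among the 3 lowest or highest USP guides of a comparison, and a pair by smallest p. List genes were taken from those of smallest p in each list and comparison, and not all of these were printed. Other guides, and the pair of Usp1 with Wdr48, were named outside this rule, after their values were seen.

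Deviations of same-numbered libraries had correlations over guides of −0.05 (day 0 and day 14), 0.11 (day 0 and irradiated) and −0.58 (day 14 and irradiated). Replicate numbers were therefore not taken as pairs. By the last value, day 14 replicate 1 tended to deviate with irradiated replicate 2, the incomplete libraries. The main edgeR fits took no account of this, while the crossed pairing given below did.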

Additional observations from a re-analysis of the deposited data

How the results depend on the processing

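No USP guide, gene, single knockout or pair was called in the main edgeR fits on all 6 libraries, and 160 of 168 recomputed counts stayed at 0. Leaving out 1 library in turn gave 0 to 3 called USP guides and 0 to 2 called USP genes at day 14 against day 0, 0 to 2 guides and 0 to 2 genes after irradiation against day 0, and 0 in every other case. All of these calls came without day 0 replicate 2, when 180 and 165 of 459 genes and 313 and 308 of 1849 guides were called overall. There the arm with 1 library was assumed to vary like the other groups. DESeq2 called 1 USP guide between irradiated and day 14, among 22 of 1849 guides. Without both incomplete libraries 5, 35 and 5 USP pairs were called at day 14 against day 0, after irradiation against day 0 and between irradiated and day 14. The cause was not tested. With the replicate block, 0 USP guides, genes, single knockouts and pairs were called, and with the crossed pairing of day 14 and irradiated replicates also 0. Guides fitted within each position, an alternative added after seeing the data like the crossed pairing, gave 0 called USP guides, and 2, 1 and 10 of 1849 overall. Of 1200 recomputed single values, 1094 kept their sign.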
